A study of Homo sapiens with 8 samples.

Results

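The transcripts described here encode the CDK7 kinase complex and the other subunits of the general transcription factor TFIIH. They were the 10 genes CDK7, CCNH, MNAT1, ERCC3, ERCC2, GTF2H1, GTF2H2, GTF2H3, GTF2H4 and GTF2H5, taken with every probe set whose only gene symbol in the platform annotation was one of them. That gave 21 of 49495 probe sets, which stood for 9 of the 10 members, of 18244 genes with such a probe set. RNA was measured on 8 Affymetrix arrays, 2 for each of 4 groups, all from the human melanoma line SK-MEL-5 kept in DMEM with 10% FCS. THZ1, a covalent inhibitor of CDK7, was given at 250 nM for 6 h together with 25 uM DMSO, and its control received 25 uM DMSO alone. In the other comparison, cells transfected with an siRNA against MITF (siMITF), the master transcription factor of the melanocyte lineage, were set against cells transfected with a non-targeting siRNA (siCtrl). The times of harvest after transfection and of the DMSO treatment are not given in the sources used here, nor is whether a group's 2 arrays were separate cultures. The p-values therefore rest on the spread between 2 arrays a group, pooled in part or in full over genes, and that spread may be technical.

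TFIIH opens promoter DNA and hands RNA polymerase II over to elongation, and it unwinds damaged DNA in nucleotide excision repair. Its kinase module joins CDK7 to its partner cyclin H (CCNH) and to the assembly factor MAT1 (MNAT1). Free of TFIIH, the same trimer activates the cell cycle kinases, and within TFIIH it phosphorylates the tail of the polymerase's largest subunit. Its core holds the DNA translocase XPB (ERCC3), the helicase XPD (ERCC2), which anchors the kinase module, and the structural and regulatory subunits encoded by GTF2H1 to GTF2H5. The ERCC genes share only their name with the ERCC spike-in RNAs that were added to these samples.

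Signals are given as deposited, on a linear scale that the series describes as normalized to cell number, and changes are differences of log2(signal + 16), which understates the change of dim genes. Because most genes on an array shared an offset, each change is also given relative to the median gene, from arrays centred to a common level. A change was called at a limma adjusted p under 0.05 over 11946 tested genes, using for each gene the brightest of its probe sets with 1 symbol. On the deposited scale the fit used 1 spread for all genes, so the SE of 0.25 there is not specific to a gene. The arrays of a group correlated at r = 0.994 to 0.995. The median signal of all probe sets was 51.1 and 67.6 with THZ1, 61.3 and 76.1 with DMSO, 40.1 and 32.5 with siMITF, and 51.1 and 59.3 with siCtrl. The median ERCC spike-in signal was 50.6 to 53.9 with THZ1, 48.0 to 53.7 with DMSO, 27.6 to 30.7 with siMITF and 28.5 to 28.7 with siCtrl, so no difference in level between a drug group and an siRNA group was tested. PMEL, MLANA, TYR, SOX10 and MITF, defining markers of the lineage, were all measured above the filter, while none of the leukocyte markers was. Of 4 keratinocyte markers 1 passed the filter (KRT10), as did 2 of 5 fibroblast markers (DCN and LUM). The summed fibroblast marker signal was 2613 to 3393 with THZ1, 2325 to 2792 with DMSO, 714 to 935 with siMITF and 1499 to 1818 with siCtrl. The summed keratinocyte signal was 543 to 775, 600.4 to 889, 317 to 372 and 478 to 577 in the same order of groups. The part of these markers in the results was not tested.

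Of the 10 members, 8 were tested. GTF2H1 had 8 probe sets, ERCC2 3, and ERCC3, GTF2H3 and GTF2H5 2 each. CDK7, CCNH and MNAT1 had 1 each. GTF2H2, whose product regulates the XPD helicase, had no probe set of its own, since its 4 probe sets also list the symbols of its near-identical copies. The only GTF2H4 probe set with a single symbol read 11.5 to 19.7 on the 8 arrays, below the filter of 39.2, and a second GTF2H5 probe set read 15.2 to 27.1, so neither was tested. GTF2H4 links XPB to the rest of the core.

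With THZ1, the transcripts of the complex did not move together. CDK7 and GTF2H1 fell relative to the median gene while CCNH, ERCC2 and GTF2H5 rose relative to it by a smaller amount. MNAT1, ERCC3 and GTF2H3 did not pass in either direction. When dim genes were kept in the fit, which moves the median gene, 2 members were lower and 0 higher, so the calls of CCNH, ERCC2 and GTF2H5 were lost. In the main fit relative to the median gene, 2 of 8 tested members were lower and 3 higher. There, 21.1% of all tested genes were lower and 17.7% higher. On the deposited scale only GTF2H1 passed (1 lower, 0 higher), against 10.0% of tested genes lower and 0.0753% higher. The median change of the 8 members was -0.08 on the deposited scale and 0.11 relative to the median gene, and that of all tested genes was -0.16 and 0.04.

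CDK7 mRNA, which encodes the kinase that THZ1 binds, had a signal of 251 and 323 with THZ1, against 395 and 493 with DMSO. Both THZ1 arrays lay below both DMSO arrays. The log2 change was -0.60 on the deposited scale (SE 0.25, n = 2 per group, limma adjusted p = 0.105), and -0.78 without THZ1 replicate 2. On that scale it also did not pass with a pseudocount of 1 (limma adjusted p = 0.145) or with dim genes kept (limma adjusted p = 0.0833). Nor did it pass with each gene's own variance (limma adjusted p = 0.393). It passed with quantile normalization (-0.35, limma adjusted p = 0.00507). CDK7 fell by 0.41 relative to the median gene, on the log2 scale (SE 0.07, 1.32-fold lower, limma adjusted p = 0.00148). Of all tested genes, 12.9% had a lower change. In bulk RNA, fewer cells with the transcript and less of it per cell cannot be told apart.

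The partners of CDK7 in the kinase module were not called lower with THZ1. CCNH, whose product is the regulatory cyclin, had 942 and 1386 with THZ1 and 924 and 1226 with DMSO, and the groups overlapped. Its change was 0.10 on the deposited scale (SE 0.25, interval -0.38 to 0.58, limma adjusted p = 0.967). Against the median gene CCNH rose by 0.30 (SE 0.08, limma adjusted p = 0.0138). It did not pass on that scale without THZ1 replicate 2 (0.23, limma adjusted p = 0.0937) or without DMSO replicate 1 (0.25, limma adjusted p = 0.0873). MNAT1, the assembly factor, had 167 and 176 with THZ1 and 160 and 192 with DMSO, so both THZ1 values lay within the DMSO range. Its change was -0.03 on the deposited scale and 0.17 relative to the median gene (95% interval -0.11 to 0.44).

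Of the tested core subunits, GTF2H1 was the only one called lower. GTF2H1 encodes a scaffold subunit with a domain that binds transcription factors and repair proteins. On its brightest probe set it read 365 and 494 with THZ1, against 821 and 976 with DMSO, so the higher THZ1 array was still well under the lower DMSO array. The log2 change was -1.05 on the deposited scale (SE 0.25, 2.07-fold lower, limma adjusted p = 7.11e-04) and -0.85 against the median gene (SE 0.09, 1.80-fold lower, limma adjusted p = 7.86e-05). Only 2.76% of tested genes had a lower change. On the deposited scale the call was lost without THZ1 replicate 1 (-0.84, limma adjusted p = 0.0625) and without DMSO replicate 2 (-0.92, limma adjusted p = 0.0904). It was also lost when each gene kept its own variance, as was every other call of any gene on that scale.

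**Figure D1:**
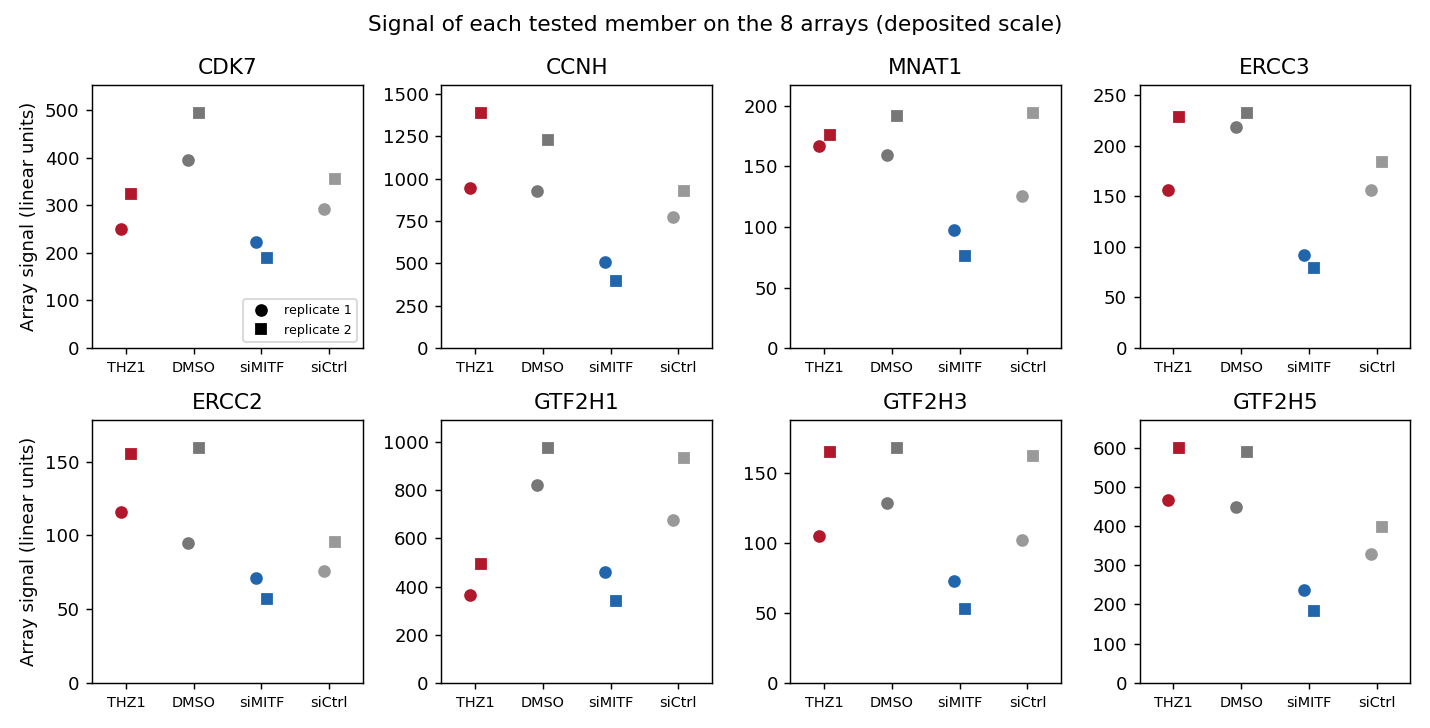
Array signal (linear units, axes from 0) of each tested member on its brightest probe set, by group, with circles for replicate 1 and squares for replicate 2. For CDK7 and GTF2H1 both THZ1 points lie below both DMSO points, and for every tested member both siMITF points lie below both siCtrl points.

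The 8 GTF2H1 probe sets gave nearly one answer with THZ1. All 8 read lower on both THZ1 arrays than on both DMSO arrays, and 7 of 8 passed on each scale in a fit over 27170 probe sets. Among those 7 the change relative to the median gene ran from -0.996 to -0.749 (limma adjusted p from 3.90e-05 to 2.74e-04). The exception was 11746625_a_at, with 279 and 380 on the THZ1 arrays, against 394 and 496 on the DMSO arrays. Its change was -0.42 on the deposited scale (limma adjusted p = 0.388) and -0.23 against the median gene (limma adjusted p = 0.0615). Several of these probe sets have names ending in _s_at or _x_at, designs that can read related sequences. Probe sets of one gene share its transcripts and are not independent replicates.

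**Figure D2:**
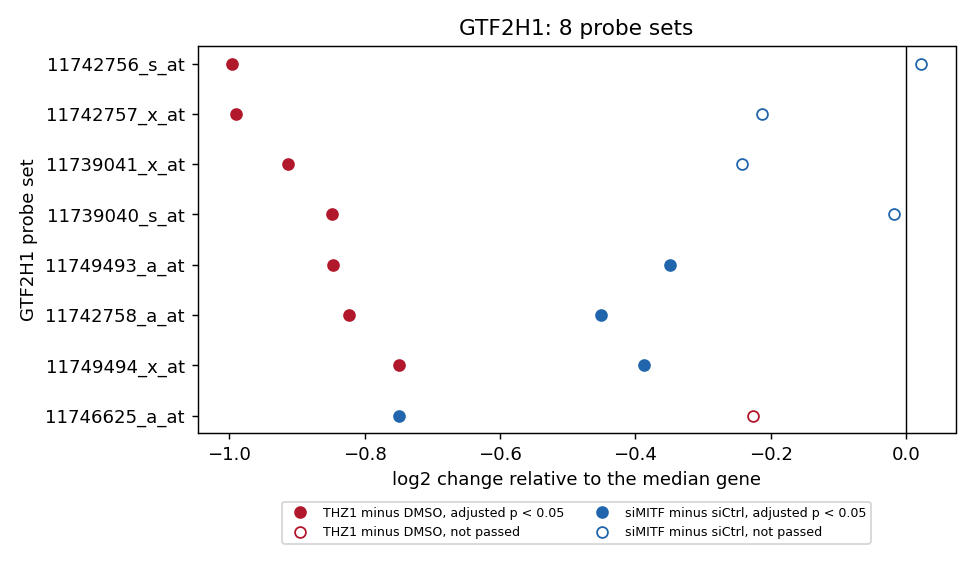
log2 change relative to the median gene (x axis) of each of the 8 GTF2H1 probe sets (rows), for THZ1 minus DMSO in red and siMITF minus siCtrl in blue, with filled points at a limma adjusted p under 0.05. In 7 of 8 rows the THZ1 point lies between -0.996 and -0.749 and left of the siMITF point, and in the row of 11746625_a_at the order is turned round.

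The helicase genes and the small subunits of the core lay near or above the median gene with THZ1. ERCC2, mutated in xeroderma pigmentosum and trichothiodystrophy, had 116 and 155 with THZ1 and 94.99 and 159 with DMSO, with both THZ1 values inside the DMSO range. Its change was 0.11 on the deposited scale and 0.31 relative to the median gene (SE 0.10, limma adjusted p = 0.0412), but its other probe sets gave 0.14 and 0.26 and did not pass (limma adjusted p = 0.398 and 0.190). GTF2H5, the smallest subunit, which stabilises the complex and is also mutated in trichothiodystrophy, had 465 and 599 with THZ1 and 449 and 589 with DMSO. The groups overlapped, and its change was 0.04 on the deposited scale and 0.24 relative to the median gene (SE 0.07, limma adjusted p = 0.0247). Neither of these calls on the relative scale held in any fit that left out THZ1 replicate 1, THZ1 replicate 2 or DMSO replicate 1, where ERCC2 had 0.13 to 0.32 and GTF2H5 0.20 to 0.26. With the mean of its probe sets GTF2H5 had 0.14 on that scale and did not pass (limma adjusted p = 0.206).

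ERCC3, the translocase, had 157 and 228 with THZ1, against 218 and 232 with DMSO. Its change was -0.23 on the deposited scale and -0.03 relative to the median gene (95% interval -0.23 to 0.16), and a second probe set gave 0.10. GTF2H3, a structural partner of GTF2H2, had 105.3 and 165 with THZ1 and 129 and 168 with DMSO. It had -0.14 on the deposited scale and 0.06 relative to the median gene (95% interval -0.19 to 0.31), while its second probe set gave -0.26 (limma adjusted p = 0.123). Over all 21 member probe sets, both THZ1 arrays lay below both DMSO arrays in 10, of which 8 were GTF2H1. The others were those of CDK7 and the second of GTF2H3 (73.5 and 107 with THZ1, against 136 and 121 with DMSO). In 1, the dim GTF2H4 probe set, both THZ1 arrays lay above both DMSO arrays. Of the 45284 probe sets with 1 symbol, 25.7% were so separated downward and 4.31% upward.

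**Figure D3:**
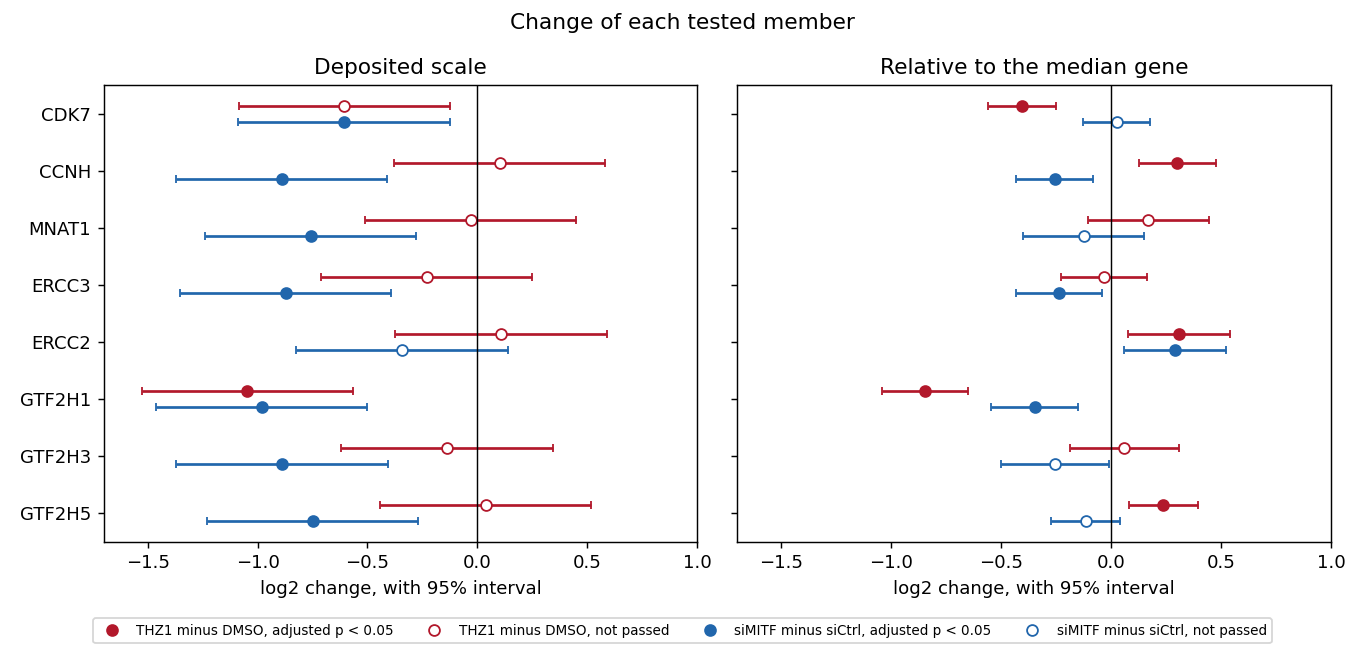
log2 change of each tested member (rows) with its 95% interval from limma, on the deposited scale (left) and relative to the median gene (right), for THZ1 minus DMSO in red and siMITF minus siCtrl in blue. Filled points passed an adjusted p under 0.05. With THZ1 the points of CDK7 and GTF2H1 stand left of the other members on both scales.

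The promoters of 3 members, chosen by their changes with THZ1, are shown. CDK7 and GTF2H1 fell relative to the median gene, and CCNH was called higher on that scale but not on the deposited one. ERCC2 and GTF2H5, also called higher relative to the median gene, are not printed. Each printed sequence is the RefSeq window of 250 bases before to 50 after the gene's start in GRCh38.p14, 5′ to 3′ on the gene's strand. All 10 members had such a window. CDK7 had 2 windows, and only the one at the annotated start of the gene was searched and printed. CDK7 is chr5:69234545-69234844 on the plus strand, GTF2H1 is chr11:18322317-18322616 on the plus strand and CCNH is chr5:87412881-87413180 on the minus strand. Capitals mark the E-box CACGTG, a palindrome that MITF and related factors such as USF1 and MYC are known to bind.
CDK7: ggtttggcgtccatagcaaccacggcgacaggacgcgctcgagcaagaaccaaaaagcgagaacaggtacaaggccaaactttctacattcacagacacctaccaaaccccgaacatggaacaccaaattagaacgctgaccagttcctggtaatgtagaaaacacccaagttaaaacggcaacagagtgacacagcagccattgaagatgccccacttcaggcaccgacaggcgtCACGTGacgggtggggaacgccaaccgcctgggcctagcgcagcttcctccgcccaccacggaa
GTF2H1: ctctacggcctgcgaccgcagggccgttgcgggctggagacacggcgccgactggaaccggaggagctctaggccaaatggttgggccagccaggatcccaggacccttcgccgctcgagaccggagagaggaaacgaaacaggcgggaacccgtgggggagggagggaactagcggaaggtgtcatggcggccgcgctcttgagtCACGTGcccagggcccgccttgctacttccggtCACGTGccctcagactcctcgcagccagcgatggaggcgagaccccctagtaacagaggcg
CCNH: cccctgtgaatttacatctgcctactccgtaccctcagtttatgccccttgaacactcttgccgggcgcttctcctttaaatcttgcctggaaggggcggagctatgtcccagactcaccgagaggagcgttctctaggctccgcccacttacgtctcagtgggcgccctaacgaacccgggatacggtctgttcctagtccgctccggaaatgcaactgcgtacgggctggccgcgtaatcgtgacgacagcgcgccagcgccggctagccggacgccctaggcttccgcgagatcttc

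The E-box was found in 2 of 10 member promoters, CDK7 with 1 copy and GTF2H1 with 2, against 7.26% of 35116 RefSeq windows of the same length. It began 14 bases upstream of the start of CDK7, and 44 and 11 bases upstream of that of GTF2H1. All motifs were searched on both strands. The shares of RefSeq windows count every window of a gene, while a single window was searched for each member. The ETS-type motif CCGGAAG was in 4 of 10 (ERCC3, GTF2H1, GTF2H2 and GTF2H3), against 10.3% of windows. CCAAT was in 2 (ERCC2 and GTF2H4), against 34.6%, and neither CATGTG nor TATAAA was in any, against 11.1% and 11.5%. A match is a description of these letters only.

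With siMITF, nearly the whole complex was lower on the deposited scale, as was most of the transcriptome. MITF itself read 1747 and 1168 with siMITF, against 3436 and 3936 with siCtrl (deposited log2 change -1.35, limma adjusted p = 1.62e-06). After centring, the MITF change was smaller, -0.72 (1.65-fold lower, limma adjusted p = 3.25e-04). The THZ1 change of MITF was -0.47 as deposited (limma adjusted p = 0.280) and -0.27 after centring (limma adjusted p = 0.0498). Of 8 tested members 7 were lower and 0 higher on the deposited scale, where 63.4% of tested genes were lower and 0.326% higher. The median change of the members was -0.81, against -0.63 for all tested genes. All 7 calls were lost without siMITF replicate 2 and also without siCtrl replicate 2. With quantile normalization, which forces the arrays to a common distribution, CDK7, CCNH, ERCC2 and GTF2H5 had positive changes (0.26, 0.01, 0.25 and 0.12), of which that of CDK7 passed. MNAT1, ERCC3, GTF2H1 and GTF2H3 had -0.08, -0.19, -0.08 and -0.28 there, and none of these 4 passed. Over the 21 probe sets, both siMITF arrays lay below both siCtrl arrays in 19 and above them in 0, against 76.0% and 2.44% of probe sets with 1 symbol.

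Relative to the median gene, 3 members were lower with siMITF and 1 higher, where 24.7% of tested genes were lower and 19.5% higher. GTF2H1 had 461 and 338 with siMITF, against 676 and 934 with siCtrl, with no overlap. It fell by 0.98 on the deposited log2 scale (SE 0.25, limma adjusted p = 4.22e-04). Set against the median gene the fall was smaller, -0.35 (SE 0.09, limma adjusted p = 0.0102), and with quantile normalization it was -0.08 (limma adjusted p = 0.395). Its 8 probe sets were all lower on the deposited scale (-1.38 to -0.61), but relative to the median gene 4 of 8 passed, over a range of -0.75 to 0.02. The lowest of these was 11746625_a_at, with 152 and 126 on the siMITF arrays, against 327 and 457 on the siCtrl arrays (limma adjusted p = 1.28e-04).

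CCNH read 510.1 and 396 on the siMITF arrays and 775 and 925 on the siCtrl arrays, again without overlap. Its change was -0.89 on the deposited scale (limma adjusted p = 0.00128) and -0.26 against the median gene (SE 0.08, limma adjusted p = 0.0240). ERCC3 read 91.7 and 79.0 on the siMITF arrays, against 156 and 184 on the siCtrl arrays. Its change was -0.87 on the deposited scale and -0.24 relative to the median gene (limma adjusted p = 0.0487). The second ERCC3 probe set read 54.2 and 42.2 with siMITF, against 115 and 142 with siCtrl, and gave -0.54 relative to the median gene (limma adjusted p = 2.84e-04). ERCC2 had 71.1 and 57.1 with siMITF, against 75.7 and 95.8 with siCtrl. That was -0.34 on the deposited scale (interval -0.82 to 0.14) and 0.29 relative to the median gene (limma adjusted p = 0.0464), where its other probe sets gave -0.04 and 0.10 and the mean of its probe sets 0.08. All 4 calls on the relative scale were lost when each gene kept its own variance. They were also lost without siMITF replicate 2 and also without siCtrl replicate 2, with changes of -0.28 and -0.24 for GTF2H1, -0.22 and -0.26 for CCNH, -0.29 and -0.26 for ERCC3, and 0.27 and 0.31 for ERCC2. Without siCtrl replicate 1 those of CCNH (-0.26), ERCC3 (-0.23) and ERCC2 (0.27) were lost too, and without siMITF replicate 1 those of ERCC3 (-0.20) and ERCC2 (0.30).

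In the main fit CDK7 lay near the median gene after siMITF. It read 223 and 189 with siMITF, against 291 and 354 with siCtrl, so the groups did not overlap. The change was -0.61 on the deposited scale (SE 0.25, limma adjusted p = 0.0251) and 0.03 against the median gene (95% interval -0.13 to 0.18, limma adjusted p = 0.784). The position of CDK7 depended on the processing. With quantile normalization it had 0.26 and passed as higher (limma adjusted p = 0.0176). With dim genes kept in the fit it had -0.16 relative to the median gene (limma adjusted p = 0.278). MNAT1, GTF2H3 and GTF2H5 had -0.76, -0.89 and -0.75 on the deposited scale, and each passed there (limma adjusted p = 0.00571, 0.00132 and 0.00627). After centring they had -0.13, -0.26 and -0.12 and did not pass. MNAT1 read 97.2 and 75.8 with siMITF, against 126 and 194 with siCtrl, GTF2H3 72.7 and 53.1 against 102 and 162, and GTF2H5 236 and 183 against 328 and 396. With the mean of its probe sets, which brings in the dim one, GTF2H5 had -0.32 on the deposited scale (limma adjusted p = 0.173), and on the relative scale 0.28, which passed as higher (limma adjusted p = 0.0191). A second GTF2H3 probe set had -0.49 on the deposited scale (limma adjusted p = 0.0603).

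**Figure D4:**
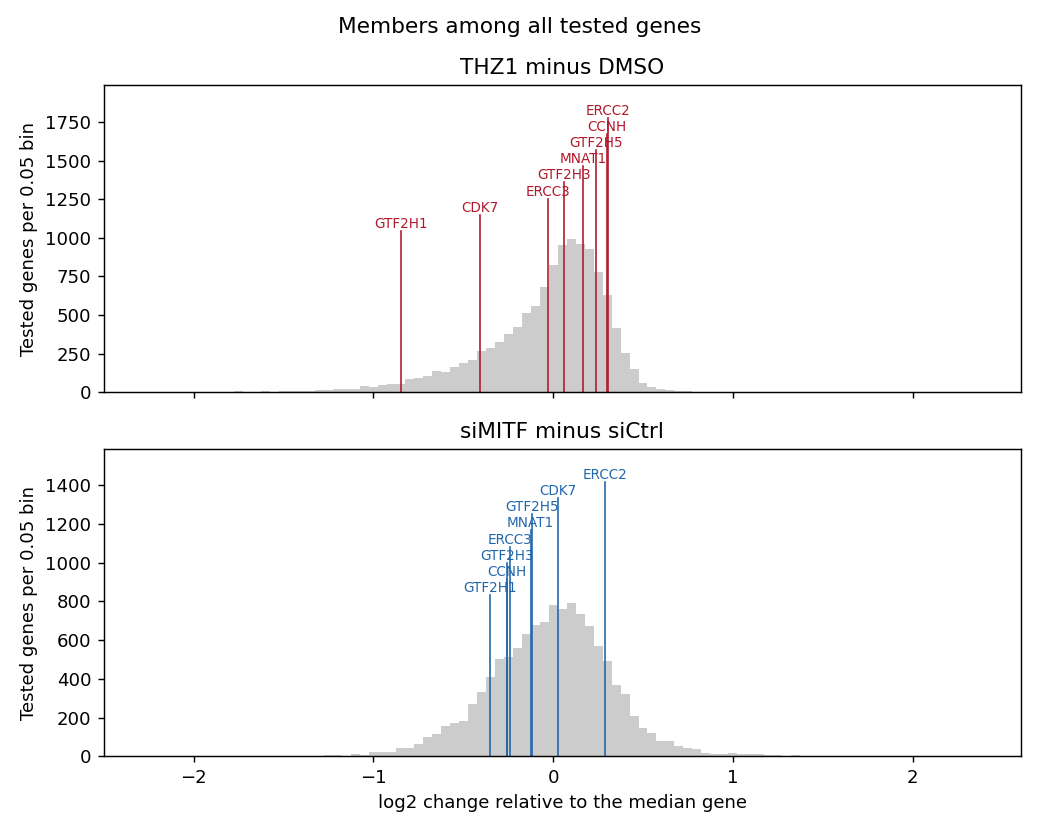
Number of tested genes per 0.05 bin of log2 change relative to the median gene (grey bars), with the 8 tested members as labelled lines, for THZ1 minus DMSO (upper) and siMITF minus siCtrl (lower). Line height only separates the labels. With THZ1 the lines of GTF2H1 and CDK7 stand left of the other 6, which lie between -0.03 and 0.31. Of all tested genes, 2.76% had a lower change than GTF2H1 and 12.9% a lower change than CDK7.

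The difference between the THZ1 and siMITF changes was tested for each member. With arrays centred, 4 of 8 differed, 2 with a lower change under THZ1 and 2 with a higher one, where 20.2% of tested genes were lower and 21.4% higher. CDK7 had -0.41 with THZ1 and 0.03 with siMITF, a difference of -0.43 (SE 0.10, limma adjusted p = 0.00570). GTF2H1 had a difference of -0.50 (SE 0.13, limma adjusted p = 0.00994), and its probe sets ran from -1.02 to 0.52, with 6 lower, 1 higher and 1 not passed. The higher one was 11746625_a_at (limma adjusted p = 0.00631). CCNH had a difference of 0.56 (SE 0.11, limma adjusted p = 0.00308) and GTF2H5 of 0.35 (SE 0.10, limma adjusted p = 0.0174). The GTF2H5 call was lost without DMSO replicate 1 (0.32) and without siMITF replicate 2 (0.32), and those of CDK7 (-0.30) and GTF2H1 (-0.37) when dim genes were kept in the fit. With quantile normalization the calls of CCNH (0.18, limma adjusted p = 0.158) and GTF2H5 (0.10, limma adjusted p = 0.418) were lost. That of GTF2H1 was lost with each gene's own variance (limma adjusted p = 0.0585), and the GTF2H5 difference was -0.13 with the mean of its probe sets.

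On the deposited scale 1 of 8 differed, CCNH with 0.99 (SE 0.35, limma adjusted p = 0.0443), where 0.946% of tested genes were lower and 9.84% higher. This call was lost without THZ1 replicate 2 (0.72), DMSO replicate 1 (0.79), siMITF replicate 2 (0.82) or siCtrl replicate 2 (0.87), and narrowly without siCtrl replicate 1 (limma adjusted p = 0.0555), while without THZ1 replicate 1 there were 4 calls. For CDK7 the difference there was 0.00 (95% interval -0.68 to 0.68), which does not show that the changes were alike.

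Other genes of the initiation and repair machinery were set beside the members. Of 9 other general transcription factors 8 were tested, all of them initiation factors except TCEA1 (TFIIS), an elongation factor. With THZ1, 1 was lower and 0 higher on the deposited scale, while relative to the median gene 2 fell and 1 rose, with list medians of -0.18 and 0.02. GTF2E1, a TFIIE subunit that recruits TFIIH to the promoter, read 163 and 178 with THZ1, against 469 and 627 with DMSO. Its change was -1.58 on the deposited scale (limma adjusted p = 3.62e-08), and -1.38 once arrays were centred (SE 0.12, limma adjusted p = 2.75e-05). A second GTF2E1 probe set gave -0.71 on the relative scale. Its TFIIE partner GTF2E2 had -0.35 (limma adjusted p = 0.00886), and TCEA1 rose by 0.30 (limma adjusted p = 0.00993), both relative to the median gene. The other TCEA1 probe sets gave 0.03 and 0.27.

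With siMITF, 7 of these 8 factors were lower on the deposited scale, while relative to the median gene 3 fell and 0 rose. TCEA1 (-0.37), GTF2A2 of TFIIA (-0.22) and GTF2F2 of TFIIF (-0.25) were those 3 (limma adjusted p = 0.00294, 0.0274 and 0.0319). Other probe sets gave -0.83 and -0.53 for TCEA1, -0.39 to -0.08 for GTF2A2 and -0.22 for GTF2F2. The list median was -0.71 on the deposited scale and -0.08 relative to the median gene.

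Of 17 nucleotide excision repair genes outside TFIIH 15 were tested. With THZ1, 2 were lower and 0 higher on the deposited scale, while relative to the median gene 2 fell and 3 rose, with list medians of -0.10 and 0.10. ERCC4, a subunit of the nuclease that cuts 5′ of the damage, read 52.7 and 57.5 with THZ1, against 186 and 212 with DMSO. Its change relative to the median gene was -1.40 (SE 0.15, limma adjusted p = 8.02e-05), but a second ERCC4 probe set gave -0.05. XPC, the damage sensor that recruits TFIIH, fell by 0.76 relative to the median gene (limma adjusted p = 1.26e-04), with -0.33 on its other probe set. DDB1, part of another damage sensor, rose by 0.33 (limma adjusted p = 0.00775).

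With siMITF, 8 repair genes were lower on the deposited scale, while relative to the median gene 4 fell and 4 rose, with list medians of -0.56 and 0.07. RPA2 and RPA1, which coat single-stranded DNA, had -0.67 and -0.45 relative to the median gene (limma adjusted p = 2.44e-04 and 8.61e-04), although a second RPA1 probe set gave 0.20. XPC rose by 0.54 relative to it (limma adjusted p = 8.93e-04).

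Among 8 known substrates of CDK7, all tested, 1 was lower and 0 higher with THZ1 on the deposited scale, while relative to the median gene 3 fell and 1 rose, with list medians of -0.23 and -0.03. POLR2A, the polymerase subunit whose tail CDK7 phosphorylates, read 374 and 487 with THZ1, against 256 and 308 with DMSO, and both THZ1 arrays lay above both DMSO arrays. It rose by 0.78 relative to the median gene (SE 0.08, limma adjusted p = 1.03e-04), with other probe sets at 0.11 and 0.54, and had 0.58 on the deposited scale (limma adjusted p = 0.129). The cell cycle kinases CDK6 and CDK4 had -0.53 and -0.30 relative to the median gene (limma adjusted p = 7.06e-04 and 0.0138), with 1 of 3 other CDK6 probe sets of opposite sign. With siMITF, 7 of the 8 were lower on the deposited scale, while relative to the median gene 4 fell and 1 rose, with list medians of -0.91 and -0.28. CDK2, CDK4 and CDK1 had -0.87, -0.79 and -0.62 relative to it (limma adjusted p = 5.39e-05, 7.44e-05 and 1.08e-04).

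Across the 8 arrays, the tested genes whose relative values were most like those of CDK7 were MPHOSPH10, C1orf74, TMEM177, RAI1 and RTP4, with Pearson r from 0.988 to 0.990. Their changes relative to the median gene ran from -1.54 to -0.64 with THZ1 and from -0.06 to 0.16 with siMITF. Among the members, GTF2H1 had r = 0.85 with CDK7, ERCC3 -0.13, GTF2H3 -0.24, MNAT1 -0.36, ERCC2 -0.60, GTF2H5 -0.62 and CCNH -0.71. These correlations span drug and siRNA arrays, which differ in spike-in level, and share the 4 groups and the centring of the arrays, so they describe the group differences again.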

How the data were processed

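Total RNA with ERCC spike-in RNA added in proportion to cell number was labelled from 100 ng per array, per the labels' protocols. Probe sets were summarised with MAS5 (version not given), per the submitters' processing notes. The deposited intensity values are linear and were normalized to cell number by the authors per the series' design text. How this was calculated is not given in the sources used here.

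Of 49495 probe sets, 45284 had 1 symbol and 1333 several, from the platform annotation, and for 45214 of the probe sets with 1 symbol the gene ID matched RefSeq (GRCh38.p14). The scale of analysis was log2(value + 16), and a gene entered the tests if its brightest probe set reached the 40th percentile of mean log2 signal of the probe sets with 1 symbol (a signal of 39.2), which left 11946 of 18244 genes. limma 3.58.1 in R 4.3.3 fitted 1 mean per group over all 8 arrays, with empirical Bayes variances and Benjamini-Hochberg adjustment over all tested genes. The prior degrees of freedom were infinite on the deposited scale, so every gene there had the same SE of 0.25, and small p-values on that scale overstate the evidence. They were 5.97 on the relative scale, beside 4 residual ones. For the relative scale each array was shifted so that, over the tested genes, its median difference from the mean of the 8 arrays was 0.

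Probe sets of the members were also tested one by one with the same offsets. The code was tested on simulated data. Named genes were the 10 members, MITF and POLR2A, up to 3 genes per list and comparison with the lowest adjusted p on the relative scale, and the 5 genes most correlated with CDK7. The members, lists and tests were chosen with earlier results of these data known. Alternatives changed the pseudocount, filter, probe sets, variance, scaling, arrays fitted and replicate block. The number of arrays limits the precision.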

Additional observations from a re-analysis of the deposited data

Results flagged for a closer look

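The THZ1 and siMITF changes of 4 members differed by the test of the difference itself (limma, n = 2 per group). Relative to the median gene the difference, THZ1 change minus siMITF change, was -0.43 for CDK7, 0.56 for CCNH, -0.50 for GTF2H1 and 0.35 for GTF2H5. On the deposited scale it was 0.99 for CCNH. With quantile normalization CDK7 and GTF2H1 still differed, and CCNH and GTF2H5 did not pass. Without the filter it was the other way round on the relative scale. CDK7 (limma adjusted p = 0.203) and GTF2H1 (limma adjusted p = 0.161) did not pass there. CCNH (limma adjusted p = 0.00832) and GTF2H5 (limma adjusted p = 0.0400) did. With each gene's own variance the GTF2H1 difference did not pass (limma adjusted p = 0.0585). The cause of these differences was not tested.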

How the results depend on the processing

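Calls of CDK7 and GTF2H1 as lower with THZ1 relative to the median gene held in every alternative that was run on their main probe sets. The counts that follow are of members called. With a pseudocount of 1 the difference of changes on the deposited scale had 0, and siMITF relative to the median gene 1. Without the filter, THZ1 had 2 and the difference 2, both relative to the median gene. With the mean of a gene's probe sets the deposited difference had 2. With each gene's own variance there were 0 on the deposited scale for THZ1, siMITF and their difference, and 0 for siMITF relative to the median gene. With quantile normalization the counts were 5 for THZ1, 1 for siMITF and 2 for the difference. With only the 4 arrays of the comparison THZ1 had 3 on the relative scale. Leaving out 1 array gave 0 to 2 (THZ1) and 0 to 7 (siMITF) on the deposited scale and 0 to 4 for the difference there, and 2 to 5, 0 to 2 and 3 to 5 relative to the median gene.

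Over all tested genes the calls on the deposited scale were 1208 (THZ1), 7607 (siMITF) and 1288 (difference). With own variances each was 0, and with quantile normalization they were 4247, 4538 and 4595. Without 1 array they ran from 250 to 2102, 1771 to 7538 and 82 to 3923. Relative to the median gene the 4632 THZ1 calls became 2567 without the filter, and the 5275 siMITF calls ran from 3252 to 4591 without 1 array.

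With the replicate block the members had 1, 7 and 1 calls on the deposited scale and 5, 3 and 4 relative to the median gene, while calls over all genes for the deposited difference were 2350. The labels state no pairing. After centring, deviations of same-numbered arrays correlated at 0.11 (THZ1 and DMSO) and -0.18 (siMITF and siCtrl). Centring removes any offset that same-numbered arrays share, so these correlations cannot show pairing of that kind. Before centring, replicate 2 had the higher median signal with THZ1, DMSO and siCtrl and the lower one with siMITF. For siMITF a crossed replicate block, chosen after seeing the data, gave 8 and 4 calls of members.

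Signs turned as follows, with the cause not tested. Without the filter: CDK7 -0.16 for the siMITF change (relative). With the mean of probe sets: GTF2H5 -0.033 for the THZ1 change (deposited), ERCC3 0.010 and GTF2H3 -0.12 for the THZ1 change (relative), CDK7 -0.012 and GTF2H5 0.28 for the siMITF change (relative), GTF2H3 -0.029 and GTF2H5 -0.13 for the difference (relative). With quantile normalization: MNAT1 0.22, ERCC3 0.028 and GTF2H3 0.11 for the THZ1 change (deposited), CDK7 0.26, CCNH 0.014, ERCC2 0.25 and GTF2H5 0.12 for the siMITF change (deposited), CDK7 -0.61 for the difference (deposited), ERCC3 0.028 for the THZ1 change (relative), CCNH 0.014 and GTF2H5 0.12 for the siMITF change (relative). On other probe sets of the gene: ERCC3 0.10 and GTF2H3 -0.26 for the THZ1 change (relative), ERCC2 -0.043, GTF2H1 0.022 and GTF2H3 0.14 for the siMITF change (relative), ERCC2 -0.058 for the THZ1 change (deposited), GTF2H1 0.072, GTF2H1 0.061 and GTF2H1 0.96 for the difference (deposited), GTF2H1 0.52 and GTF2H3 -0.40 for the difference (relative). Without 1 array, values spanned 0. For the THZ1 change on the deposited scale the ranges were CCNH -0.17 to 0.38, ERCC2 -0.22 to 0.44, ERCC3 -0.48 to 0.020, GTF2H3 -0.43 to 0.15, GTF2H5 -0.15 to 0.23, MNAT1 -0.15 to 0.090. For the difference of changes on the deposited scale the ranges were CDK7 -0.17 to 0.18, GTF2H1 -0.29 to 0.16. For the siMITF change on the relative scale the ranges were CDK7 -0.0042 to 0.049, MNAT1 -0.29 to 0.035. For the difference of changes on the relative scale the ranges were ERCC2 -0.16 to 0.20. For the THZ1 change on the relative scale the ranges were ERCC3 -0.14 to 0.080, GTF2H3 -0.028 to 0.15.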
